A study of Rattus norvegicus with 36 samples.

Results

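Polysomal RNA of exercised rat skeletal muscle was compared between 6 h and 1 h after resisted contractions. The comparison takes in 12 of the 36 arrays of the series, chosen by their titles: 8 arrays at 6 h, with numbers 1 to 4, and 4 arrays at 1 h, with numbers 1 and 2. Each number has 2 arrays, and their average on the log2 scale is used as 1 replicate. All 8740 probe sets that are not array controls entered, and the text names genes by their brightest probe set. The labels give the muscle only as "ta" and state no strain, sex or age. They do not say whether a number is an animal, a muscle or a pool, so the spread behind each p-value may be technical.

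Polysomal controls, from muscle whose labels name no contractions, carry 2 kinds of title. The control titled 1hr polysome has 4 arrays with numbers 1 and 2, and its description gives 1 h but does not mention polysomes. The control polysome has 8 arrays with numbers 1 to 4, and its description gives polyribosomal RNA at 1 h while its titles give no time. The labels name no control at 6 h. The controls therefore show what the same measurement gives between 2 groups of control arrays, not what time alone gives. Total RNA of exercised muscle at 1 h (4 arrays) and 6 h (8 arrays) completes the series.

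A polysome is a messenger RNA carrying several ribosomes, and RNA prepared from polysomes samples the transcripts that are being translated. A transcript can gain polysomal signal because more of it is present or because more of it is loaded, and these arrays measure both together. Contracting muscle is known to express early transcription factors such as Fos and Egr1 within the first hour, followed by genes of stress protection, fuel use, fibre repair and growth. In these bulk samples, fewer cells of a type and less RNA per cell cannot be told apart.

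Several arrays stood apart, and these facts precede the results. The numbers of the 1 h group correlated with each other at 0.95 over 6707 probe sets, and 521 probe sets lay more than 1 log2 apart; within 6 h the 6 pairs gave 0.95 to 0.972 and 268 to 581 probe sets. Array a of 1 h number 2 lay at least 2 log2 below the other 11 arrays for 43 probe sets, array a of 1 h number 1 for 16 and array a of 6 h number 3 for 25. At 6 h and in the control polysome, numbers 1 and 2 each hold 1 array named without a letter, and on these, 8 and 4 probe sets at 6 h and 6 and 7 in the control polysome had a signal of 100 or less beside 5000 or more on the other array of the number. Acta1, skeletal muscle alpha-actin, had a signal of 18 on such an array and 12912 on the other array of number 1, and 13 against 8409 in number 2. In the control polysome the same arrays gave 5 and 91 against 10253 and 11401. The 3'/5' signal ratio of the actin control probes was 2.0 to 4.28 at 1 h and 2.54 to 4.48 at 6 h, and that of GAPDH was 0.42 and 0.07 on the 6 h arrays with no letter. In the control titled 1hr polysome, 249 probe sets (3.71%) lay more than 2 log2 apart between the arrays of number 2. In total RNA at 6 h, the arrays of number 3 had actin ratios of 9.01 and 11.53 beside 1.01 to 1.58 on the others, and GAPDH ratios of 11.38 and 9.73. Without that number the contrast with total RNA below, and without that control number both comparisons with the controls, likewise had 0 calls in limma, with 343, 211 and 154 probe sets at an unadjusted p under 0.05.

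No probe set passed the test. In limma's moderated test 0 of 6707 probe sets (0.0%) had an adjusted p under 0.05, and the smallest adjusted p was 0.236. At an unadjusted p under 0.05 there were 366 probe sets (5.46%), beside 335 expected by chance: 149 (2.22%) higher and 217 (3.24%) lower at 6 h. By gene, 237 of 3903 (6.07%) reached that level, 107 (2.74%) higher and 130 (3.33%) lower. The numbers did not overlap for 176 genes (4.51%) higher at 6 h and 355 (9.1%) lower. With 4 and 2 numbers, some genes separate in this way by chance. Between the controls, with as many numbers, it held for 1200 of 6707 probe sets (17.9%), counted by probe set and not by gene. The adjusted p of every gene named for this comparison was 0.236 or more, so each difference below is a measured value and not a call. Signals are on the deposited linear scale, in number order, as the geometric mean of the arrays of a number. Differences are 6 h minus 1 h in log2 with their standard error (SE, n = 4 and 2 numbers). For Mxi1, Gtf2ird1, Cd44, Crem, Azin1, Mapk9, Eef2, Acsl1, Atp2a2, Gpx3, Nr4a3, Ppp1r1a and Egr1 at least 1 other probe set of the gene had the opposite sign.

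Taken against a single 1 h number the test did make calls, and none was shared. These calls take the spread from the other groups, since the lone 1 h sample is assumed to vary as they do. Without number 1, 27 probe sets (0.403%) passed, 22 of them higher at 6 h. Without number 2, 12 probe sets (0.179%) passed, 8 of them higher. Of the 27, 20 had array a of number 2 at least 2 log2 below array b, and 4 of the 12 had array a of number 1 that far below array b. Csnk2b, the regulatory subunit of casein kinase 2, had 46 and 4175 on the arrays of number 2 and 3799 and 4284 on those of number 1. Its signals were 4035 and 735 at 1 h and 4594, 6458, 4635 and 4388 at 6 h, and its difference of 1.52 (SE 0.45) became 0.27 when number 2 was represented by array b.

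The most demanding separation in these data was that all 8 arrays at 6 h lay on one side of all 4 arrays at 1 h. That held for 22 genes higher (0.564%) and 48 genes lower (1.23%) at 6 h. Between the control polysome and the control titled 1hr polysome it held for 39 genes (0.999%) in each direction, with 1 gene shared among the higher and 4 among the lower, so the higher genes were fewer than between the controls. The higher genes included Hspa1a, Dnaja1, Hspd1, Hbegf, Igfbp3, Pdgfa, Smad1, Tnni1, Myh7 and Pelo. The lower genes included the growth hormone receptor Ghr, the elongation factor Eef2 and the early transcription factor Klf4. The genes of this separation that follow no naming rule were chosen after their values were seen.

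**Figure D1:**
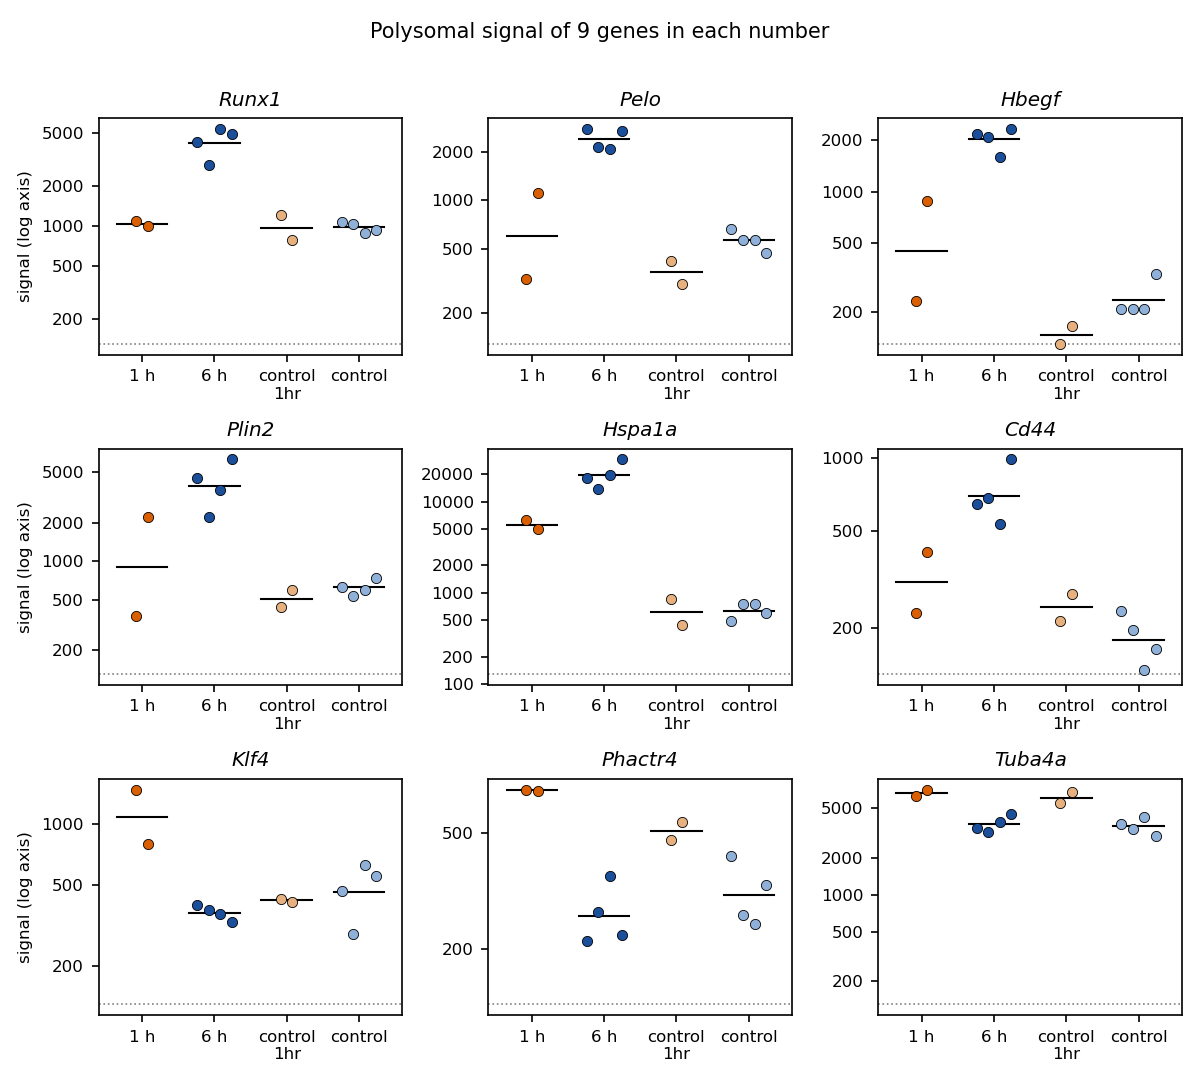
Polysomal signal of 9 genes (log axis) in each number of the exercised 1 h and 6 h groups and of both controls; points are numbers, lines geometric means and the dotted line the floor of 129.5. The 6 h points lie above both 1 h points for Runx1, Pelo, Hbegf, Plin2, Hspa1a and Cd44 and below them for Klf4, Phactr4 and Tuba4a.

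Pelo, which splits ribosomes stalled on a messenger RNA, had the smallest p among the higher genes. Its signals were 324 and 1103 at 1 h and 2750, 2130, 2082 and 2681 at 6 h. All 8 arrays at 6 h were above all 4 at 1 h, and the difference was 2.0 (SE 0.39, adjusted p = 0.236), 4.0-fold. Against number 1 alone it was 2.88 and against number 2 alone 1.12. The arrays of 1 h number 1 were 166 and 630, and by array b the difference came to 1.52. The control polysome lay 0.65 above the control titled 1hr polysome. In total RNA, Pelo was 1.31 higher at 6 h.

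Runx1, a transcription factor that muscle fibres express strongly after loss of innervation, had 1077 and 994 at 1 h and 4212, 2831, 5303 and 4864 at 6 h. The groups did not overlap by number, and the difference was 2.02 (SE 0.49, adjusted p = 0.532), 4.05-fold. The agreement of the 1 h numbers hides unequal arrays, which gave 1090 and 1064 in number 1 and 302 and 3268 in number 2. The lowest array at 6 h was 2669, so the groups overlapped by array, and with number 2 represented by array b the difference was 1.16. The controls lay between 775 and 1201 and differed by 0.01.

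Hbegf, an epidermal growth factor receptor ligand, had 229 and 882 at 1 h and 2164, 2076, 1589 and 2317 at 6 h. All 12 arrays were apart, and the difference was 2.17 (SE 0.57, adjusted p = 0.532), 4.49-fold. Both controls were lower, from 130 to 332. Smad1, which carries bone morphogenetic protein signals, had 154 and 195 at 1 h and 476, 787, 299 and 984 at 6 h, a difference of 1.74 (SE 0.46). It was also 0.90 higher in the control polysome than in the control titled 1hr polysome.

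Plin2, which coats lipid droplets, had 371 and 2231 at 1 h and 4543, 2240, 3637 and 6347 at 6 h. The lowest 6 h number was level with 1 h number 2, and the difference of 2.11 (SE 0.59, adjusted p = 0.597) was 3.4 against number 1 and 0.81 against number 2. Its arrays in 1 h number 1 were 158 and 872, and by array b the difference came to 1.49. Pdpn, the membrane glycoprotein podoplanin, had 162 and 241 at 1 h and 490, 252, 775 and 1029 at 6 h, a difference of 1.51 (SE 0.44). Its 1 h arrays were 69 and 202 in number 1 and 113 and 447 in number 2, with 2 of the 4 above the floor. The arrays of 6 h number 2 were 328 and 193, so the groups overlapped by array. By array b of 1 h number 2 the difference came to 1.06. The control signals of Pdpn were 130 to 208. Stard8 had 131 and 136 at 1 h and 337, 248, 180 and 291 at 6 h, a difference of 0.95 (SE 0.26). Only 2 of its 4 arrays at 1 h were above the floor, so that difference is not exact. The controls of Stard8 differed by -0.23, the opposite sign.

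The remaining leading genes on the higher side were Ppp2r3a (1.26, SE 0.29), a regulatory subunit of protein phosphatase 2A, Tars1 (0.65, SE 0.17), the threonyl-tRNA synthetase, Nrp1 (1.31, SE 0.35), a co-receptor for semaphorins and vascular endothelial growth factor, and Foxs1 (1.12, SE 0.30), a forkhead transcription factor. Foxs1 differed by 1.17 between the controls. With 1 h number 1 represented by its array b, Ppp2r3a came to 0.37 and Nrp1 to 0.82, and with number 2 by its array b Ppp2r3a came to 0.83.

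On the lower side the leading gene was Phactr4, a regulator of protein phosphatase 1 and actin. Its signals were 704 and 698 at 1 h and 214, 268, 356 and 224 at 6 h, all 12 arrays apart. The difference was -1.43 (SE 0.28, adjusted p = 0.236), 2.7-fold lower, and the control polysome was lower than the other control by 0.72. In total RNA Phactr4 differed by -0.01 between the times.

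Tuba4a, an alpha-tubulin, had 6320 and 7120 at 1 h and 3463, 3206, 3883 and 4551 at 6 h, a difference of -0.84 (SE 0.18, adjusted p = 0.495). The controls gave nearly the same difference, -0.78. Vezf1, a zinc finger transcription factor of blood vessels, had 3243 and 1233 at 1 h and 765, 839, 631 and 449 at 6 h, a difference of -1.61 (SE 0.37), against -0.88 in the controls. Nek7, a kinase of the NIMA family, had 3881 and 3177 at 1 h and 1932, 1847, 2050 and 1139 at 6 h, a difference of -1.05 (SE 0.24), against -0.76 in the controls.

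The other leading genes on the lower side were Xpo7 (-0.75), a nuclear export receptor, Pias2 (-1.08), a SUMO ligase, Mxi1 (-1.02), a MYC antagonist, Gtf2ird1 (-1.07), Paip1 (-0.73), a partner of the poly(A)-binding protein in translation, Slc41a2 (-0.67), a magnesium transporter, Zfp386 (-0.90) and Klf4. For 10 of the 12 the control polysome was also the lower control, by 0.39 or more. Slc41a2 had 612 and 89 on the arrays of 1 h number 1, and with array b its difference came to -0.11. The exceptions were Slc41a2, at or near the floor in the controls and at 6 h, where the controls differed by -0.01, and Klf4.

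Klf4, an early transcription factor, had 1474 and 791 at 1 h and 398, 375, 362 and 328 at 6 h, all 12 arrays apart. The difference was -1.56 (SE 0.44, adjusted p = 0.597), 2.96-fold lower, whereas the controls lay between 286 and 626 and differed by 0.14. The 6 h numbers thus lay within the range of the controls and the 1 h numbers above it. In total RNA Klf4 was also lower at 6 h, by 1.33.

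**Figure D2:**
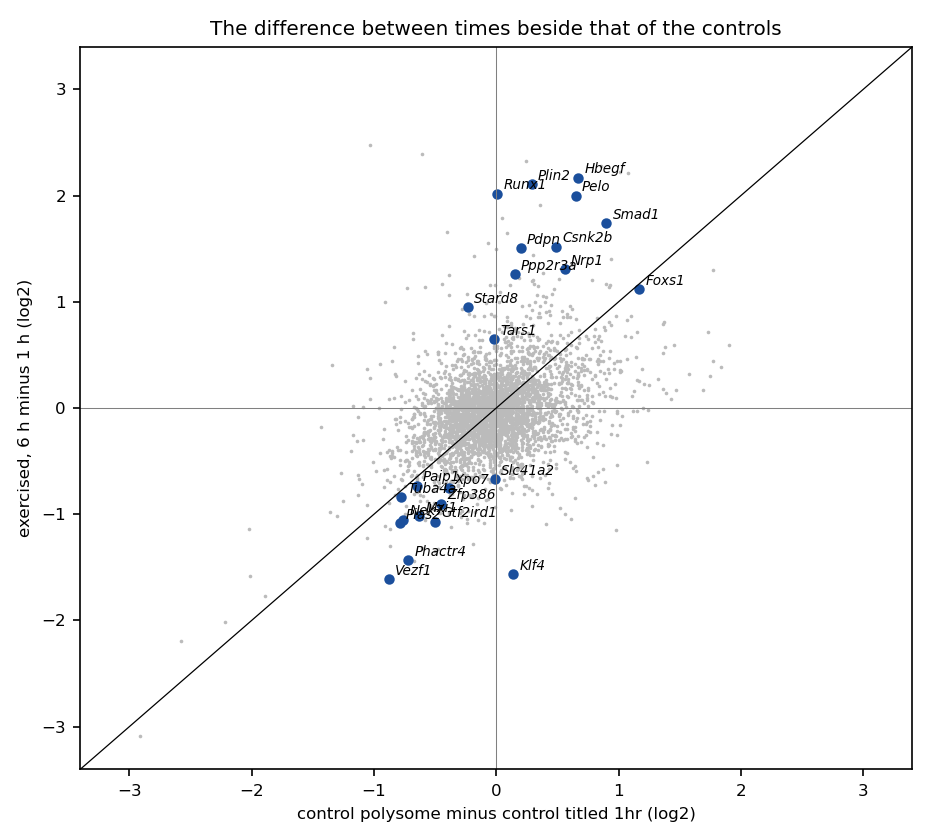
Difference between 6 h and 1 h in exercised muscle against the difference between the control polysome and the control titled 1hr polysome (both log2), 1 point for each of 3903 genes, with the 24 leading genes named. Runx1, Plin2 and Hbegf sit high with a control difference of 0.67 or less, whereas Tuba4a and Foxs1 differed by about as much between the controls.

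Among 26 tested early transcription factors, 3 were higher and 1 was lower at an unadjusted p under 0.05. Over all 3903 genes 2.74% were higher and 3.33% lower, the shares to set beside every list below. The median difference of this list was 0.05 against -0.02 over all genes. It was -0.30 against 1 h number 1, 0.19 against number 2 and -0.05 without the arrays named without a letter. Over all 24 gene lists, markers aside, 12 had medians of opposite sign against the single 1 h numbers. In total RNA the median of the same list was -0.52. The higher members were Fosl1, Klf6 and Crem. Fosl1, a partner of Jun in AP-1, had 130 and 267 at 1 h and 440, 250, 625 and 1101 at 6 h, whereas every control number was at the floor. Klf6 had 1269 and 2121 at 1 h and 3241, 3157, 3529 and 7271 at 6 h, all 12 arrays apart, but its controls differed by 1.77, more than the 1.30 (SE 0.60) between the times. Crem, a cyclic AMP-responsive repressor named after its values were seen, had 366 and 348 at 1 h and 660, 862, 858 and 826 at 6 h. The arrays at 1 h were 950 and 141 in number 1 and 86 and 933 in number 2, so the equal 1 h numbers again average unequal arrays. Its difference came to 0.47 with array a of number 1 and 0.45 with array b of number 2.

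Fos itself showed a wide range at 1 h. It had 31630 and 3048 at 1 h and 9972, 10338, 12562 and 21574 at 6 h, so the 6 h numbers lay between the 1 h numbers, and all were above the controls, 1169 to 2255. Egr1 had 50214 and 6442 at 1 h and 11744, 18239, 22004 and 40014 at 6 h, against 1633 to 3874 in the controls. Atf3, a stress-induced transcription factor, had 18192 and 2801 at 1 h and 22967, 12742, 25325 and 34440 at 6 h, against 513 to 1663 in the controls. Polysomal signals of these genes at 6 h were thus above every control number, several hours after the contractions.

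Of 22 tested early feedback and signalling genes, 3 were higher, none was lower and the median was 0.14. Beside Hbegf these were Errfi1 and Btg1. Errfi1, an inhibitor of the epidermal growth factor receptor, had 992 and 628 at 1 h and 1400, 1832, 1491 and 2544 at 6 h, all 12 arrays apart. The difference was 1.16 (SE 0.39), and the controls, 371 to 549, differed by -0.01. In total RNA Errfi1 differed by -0.42, the opposite sign. Btg1, an antiproliferative gene, had 2039 and 542 at 1 h and 2142, 1966, 3368 and 2346 at 6 h. Its arrays in 1 h number 2 were 152 and 1931, and with array b its difference of 1.19 came to 0.28.

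Cytosolic heat shock proteins, which fold and protect other proteins, had 1 of 17 tested members higher and none lower at an unadjusted p under 0.05, with a median of 0.01. Hspa1a, the inducible HSP70, had 6325 and 4994 at 1 h and 18178, 13617, 19565 and 29061 at 6 h. All 12 arrays were apart, the difference was 1.79 (SE 0.63, adjusted p = 0.662), 3.45-fold, and it was 1.61 and 1.96 against the single 1 h numbers. The controls lay between 448 and 851, below both times. In total RNA the signal of Hspa1a differed by 0.18 between the times.

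Dnaja1, a co-chaperone of HSP70, had 3499 and 3916 at 1 h and 8322, 13625, 7464 and 9474 at 6 h, a difference of 1.35 (SE 0.67), all 12 arrays apart. Its controls ran from 1388 to 4167. Hspd1, the mitochondrial chaperonin, is counted in the list of cytosolic heat shock proteins although it is not cytosolic. It was apart by array as well, with arrays of 4127 to 5236 at 1 h and 5610 to 8937 at 6 h. Hspb2, a small heat shock protein of muscle, had 2148 and 4115 at 1 h and 4227, 4846, 3936 and 4302 at 6 h and overlapped. Of 15 tested chaperones of the endoplasmic reticulum none was higher or lower at that level, with a median of -0.05.

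Stretch-responsive genes of the sarcomere and Z disc had 2 of 15 tested members higher and none lower, with a median of -0.03. Actc1, the cardiac alpha-actin that adult muscle expresses again during regeneration, had 914 and 3158 at 1 h and 10117, 15699, 13412 and 2957 at 6 h. The difference was 2.39 (SE 0.84, adjusted p = 0.662), but the fourth 6 h number lay within the 1 h range, and in the control polysome number 4 was likewise low at 3364 beside 16813 to 18297. The control titled 1hr polysome gave 19853 and 15929, so both 1 h exercised numbers lay below both of these controls, and each 6 h number lay below the control polysome of the same number.

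Ankrd1, a titin-bound stretch sensor, had 907 and 30249 at 1 h and 25398, 19368, 22750 and 42868 at 6 h, against 720 to 1389 in the controls. Number 1 at 1 h lay in the control range and number 2 in the range of 6 h, and both arrays of each number lay close together (1006 and 818, 29809 and 30693). Csrp3, muscle LIM protein, had 4087 and 23769 at 1 h and 22509, 16728, 21718 and 29221 at 6 h, against 2682 to 6864 in the controls. The differences were 2.33 (SE 1.03) and 1.17 (SE 0.63), and against number 2 alone -0.20 and -0.10.

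Myogenic and growth regulators had 5 of 35 tested members higher and 1 lower at an unadjusted p under 0.05, with a median of 0.02. Besides Runx1 the higher ones were Myog, Il6r, Igfbp3 and Pdgfa. Myog, the transcription factor myogenin, had 130 and 1092 at 1 h and 3118, 3057, 895 and 1307 at 6 h. Its numbers 1 and 2 were also the high ones in the control polysome, at 1164 and 1482 beside 305 and 162. Il6r, the interleukin 6 receptor, had 524 and 245 at 1 h and 593, 743, 731 and 817 at 6 h, a difference of 1.00 (SE 0.36) that came to 0.66 with array b of number 2. Lif, a cytokine released by muscle, had 344 and 334 at 1 h and 201, 157, 130 and 209 at 6 h, a difference of -0.99 (SE 0.40), with -0.39 between the controls.

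Igfbp3, an insulin-like growth factor binding protein, had arrays of 582 to 725 at 1 h and 785 to 1878 at 6 h. Pdgfa, a platelet-derived growth factor chain, had 789 to 955 and 1026 to 1823. Ghr, the growth hormone receptor, ran the other way with 2115 to 2945 at 1 h and 916 to 1906 at 6 h. Their differences were 0.80 (SE 0.35), 0.68 (SE 0.30) and -0.67 (SE 0.39), beside 0.42, 0.45 and -0.28 between the controls. Fst, the myostatin antagonist follistatin, was named after its values were seen and had 1315 and 321 at 1 h and 1389, 1238, 5104 and 9731 at 6 h.

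Acetylcholine receptor and denervation genes had 9 of 10 tested members above 0 with a median of 0.25, beside 1806 of 3903 over all genes. Without the arrays named without a letter 6 of 10 were above 0 and the median was 0.15. In total RNA the median of these genes was -0.65, the opposite sign. At an unadjusted p under 0.05, 2 of them, Runx1 and Myog, were higher. Gadd45a, a growth arrest gene that denervated muscle expresses, had 724 and 3316 at 1 h and 4733, 3934, 4760 and 6299 at 6 h, a difference of 1.65 (SE 0.93). It was 2.75 against number 1 and 0.55 against number 2. The controls of Gadd45a ran from 911 to 1587.

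In the list of chemokines and inflammation, 3 of 29 tested genes were higher and 1 was lower, with a median of -0.13. Among 25 adhesion and migration receptors 3 were higher and none lower, with a median of 0.03, and Cd44 and Plaur stand in both lists. Cd44, the hyaluronan receptor, had 231 and 411 at 1 h and 643, 682, 536 and 984 at 6 h, a difference of 1.17 (SE 0.40), against 135 to 276 in the controls. Plaur, the urokinase receptor, had 381 and 709 at 1 h and 1142, 1072, 1356 and 1302 at 6 h, a difference of 1.22 (SE 0.53), all 12 arrays apart, against 130 to 226 in the controls. Il1b, interleukin 1 beta, had 336 and 350 at 1 h and 244, 189, 202 and 291 at 6 h, a difference of -0.59 (SE 0.26).

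Macrophage markers stood beside these genes as follows. Of 27 markers 15 were tested, 14 of them above the floor on some of the 12 arrays and Ccr2 on none. The summed signal ran from 10122 to 18798 at 1 h, from 11730 to 24593 at 6 h and from 7794 to 15248 in the controls, and none of the 15 was higher or lower at an unadjusted p under 0.05. Their part in the values of Cd44 and Plaur was not tested.

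Antioxidant proteins and metallothioneins had 1 of 25 tested members higher, none lower and a median of -0.05. Hmox1, heme oxygenase 1, had 707 and 1205 at 1 h and 3430, 955, 1749 and 1637 at 6 h, a difference of 0.92 (SE 0.42), and number 2 at 6 h lay below the higher 1 h number. Gpx3, a secreted glutathione peroxidase, differed by -0.70 and by 0.89 between the controls, the opposite sign. Of 11 glucocorticoid receptor and response genes none was higher or lower at that level.

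**Figure D3:**
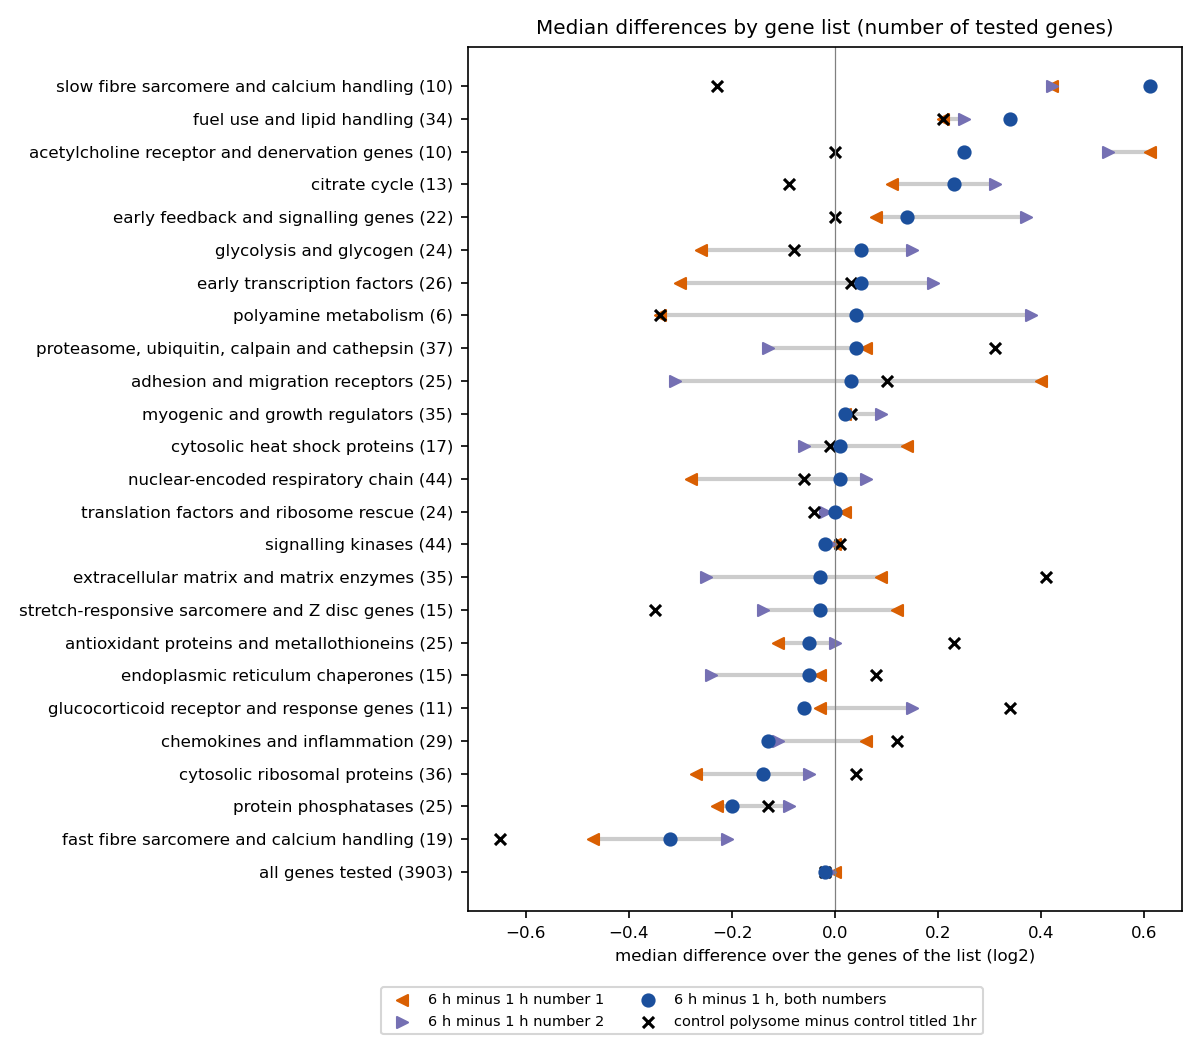
Median difference between 6 h and 1 h over the tested genes of each list (log2), with both 1 h numbers, against number 1 and number 2 alone, and between the controls (crosses). Most medians lie near the -0.02 of all 3903 genes, with 0.61 for slow fibre genes, 0.34 for fuel use and -0.32 for fast fibre genes.

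Fuel use and lipid handling had 27 of 34 tested members above 0, beside 1806 of 3903 over all genes, and a median of 0.34. Without the arrays named without a letter these were 23 of 34 and 0.20, and against the single 1 h numbers the median was 0.21 and 0.25. The control median was 0.21 and that of total RNA -0.07, and 3 members were higher at an unadjusted p under 0.05. Besides Plin2 these were Cpt2 and Acsl1. Cpt2, which carries fatty acids into the mitochondrial matrix, had 1116 and 921 at 1 h and 2525, 4080, 1306 and 1980 at 6 h, a difference of 1.16 (SE 0.52) against 0.90 between the controls. Acsl1, which activates fatty acids, had 5920 and 1047 at 1 h and 5905, 7118, 4136 and 6457 at 6 h. Number 1 lay in the 6 h range, and the arrays of number 2 gave 308 and 3560, with a difference of 0.33 by array b. Pdk4, the kinase that switches off glucose oxidation, was named after its values were seen and had 197 and 893 at 1 h and 3018, 3851, 741 and 1671 at 6 h, with the same high numbers 1 and 2 in the control polysome (1332 and 2347 beside 311 and 265).

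The citrate cycle list, which also takes in Pdhx and Got1 from outside the cycle, had 12 of 13 tested members above 0. Over all genes 1806 of 3903 were above 0. Its median was 0.23, its control median -0.09 and its total RNA median -0.13, with 1 member higher at an unadjusted p under 0.05. That was Pdhx, a component of the pyruvate dehydrogenase complex, with 248 and 230 at 1 h and 713, 850, 358 and 517 at 6 h, a difference of 1.28 (SE 0.59). The arrays of number 1 were 134 and 460, and with array b the difference came to 0.83. The control titled 1hr polysome gave 647 and 488, and both 1 h exercised numbers lay below these. Got1 and Dlst differed by 0.56 (SE 0.27) and 0.67 (SE 0.33) and overlapped.

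Glycolysis and glycogen genes had 1 of 24 tested members higher, none lower and a median of 0.05. Pgk1, phosphoglycerate kinase, had 16352 and 13881 at 1 h and 19746, 20047, 20209 and 24312 at 6 h, a difference of 0.48 (SE 0.15), with no overlap by number. Its arrays were 9239 and 28942 in 1 h number 1 and 9785 and 19690 in number 2, and the difference came to 0.07 and 0.23 by array b of each. Hk2, the hexokinase that traps glucose in muscle, had 2440 and 5151 at 1 h and 7866, 5298, 9874 and 6062 at 6 h, a difference of 1.00 (SE 0.50), against 2074 to 3888 in the controls. The nuclear-encoded respiratory chain had 1 of 44 tested members higher, none lower and a median of 0.01, with medians of -0.28 and 0.06 against the single 1 h numbers. The higher member, Ndufc2, had 4953 and 7934 at 1 h and 9536, 10403, 12908 and 7728 at 6 h and overlapped, with a difference of 0.15 by array b of number 1.

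Slow fibre genes of the sarcomere and calcium handling had the largest median among the lists described here, 0.61 over 10 tested members. Of the 10, 8 were above 0, beside 1806 of 3903 over all genes. At an unadjusted p under 0.05, 4 of the 10 were higher, beside 107 (2.74%) of all genes, and none was lower. The control median was -0.23 and that of total RNA -0.04. The median between the times was 0.42 against either 1 h number alone. It was 0.38 with 1 h number 2 represented by its array b, under which 2 members were higher at that level. Tnni1, slow troponin I, had 2307 and 1784 at 1 h and 3076, 5200, 3357 and 3639 at 6 h, all 12 arrays apart, a difference of 0.88 (SE 0.32). Myh7, slow myosin heavy chain, had arrays of 1881 to 2412 at 1 h and 3026 to 4804 at 6 h, a difference of 0.78 (SE 0.34). The controls of these genes differed by -0.22 and -0.39.

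Myl2, slow myosin light chain, and Atp2a2, the slow calcium pump, had 1 low array at 1 h. Myl2 had 12746 and 3613 at 1 h and 10536, 17835, 15984 and 13814 at 6 h, with 1275 and 10239 on the arrays of number 2. Atp2a2 had 4467 and 574 at 1 h and 4296, 4162, 2979 and 3974 at 6 h, with 54 and 2543 on those arrays. With array b in place of number 2 the differences of 1.07 and 1.25 came to 0.32 and 0.18.

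Fast fibre genes had a median of -0.32 over 19 tested members, with 1 higher and none lower at an unadjusted p under 0.05, and the control median was -0.65. Without the arrays named without a letter the median was -0.07, against -0.09 over all genes, and the median of 13 tested skeletal muscle markers went from -0.42 to -0.05. Tnnc2, fast troponin C, had 13246 and 11423 at 1 h and 2002, 651, 2134 and 18749 at 6 h, and 15938 and 28814 beside 1954, 812, 2170 and 48493 in the controls. Myl11, the fast regulatory light chain, and Pvalb, the calcium buffer parvalbumin, named after their values were seen, differed by -3.09 (SE 1.54) and -2.01 (SE 1.48), beside -2.91 and -2.22 between the controls. Tnni2, fast troponin I, had 26339 and 5944 at 1 h and 23689, 22573, 19348 and 27326 at 6 h, with arrays of 1635 and 21604 in number 2.

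Translation factors and ribosome rescue had 2 of 24 tested members higher and 1 lower, with a median of -0.00. Besides Pelo, the higher member was Eif3b, a subunit of initiation factor eIF3, with 1852 and 3412 at 1 h and 3449, 3495, 3583 and 4925 at 6 h. Its arrays in 1 h number 1 were 767 and 4471, and with array b the difference of 0.60 came to -0.03. Eef2, the factor that moves the ribosome along, had 29294 and 19825 at 1 h and 12784, 10727, 17404 and 18024 at 6 h, all 12 arrays apart. Its difference of -0.74 (SE 0.31) stood beside -0.47 between the controls.

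Cytosolic ribosomal proteins had 2 of 36 tested members higher and 2 lower, with a median of -0.14. Rpl31 had 30264 and 22821 at 1 h and 18779, 17319, 21389 and 16907 at 6 h, a difference of -0.50 (SE 0.20), all 12 arrays apart, with -0.30 between the controls. Rps10 had 3259 and 1339 at 1 h and 4733, 6748, 3356 and 4322 at 6 h, with arrays of 424 and 4229 in number 2 and a difference of 0.32 by array b. In the polyamine list of 6 tested genes 1 was higher, Azin1, which relieves the block on ornithine decarboxylase. Azin1 had 301 and 524 at 1 h and 808, 1235, 849 and 683 at 6 h, a difference of 1.14 (SE 0.37) that came to 0.64 by array b of number 1, where the arrays were 151 and 598, while the controls, 308 to 567, differed by -0.58.

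Signalling kinases had 1 of 44 tested members higher and 1 lower, with a median of -0.02. Pdpk1, which activates AKT, had 578 and 657 at 1 h and 1127, 1451, 1055 and 974 at 6 h, all 12 arrays apart, a difference of 0.89 (SE 0.31) against 0.58 between the controls. Mapk9, a JNK kinase, had 225 and 385 at 1 h and 179, 162, 145 and 138 at 6 h, a difference of -0.92 (SE 0.27). The controls of Mapk9 differed by -0.53, and only 5 of its 8 arrays at 6 h were above the floor. Protein phosphatases had 1 of 25 lower, Ptpn6, which had 202 and 450 at 1 h and 171, 130, 192 and 206 at 6 h. Its difference came to -0.49 by array b of number 1. Of 37 genes of the proteasome, ubiquitin, calpains and cathepsins and 35 of the extracellular matrix, none was higher or lower at that level, with medians of 0.04 and -0.03.

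Medians over the marker lists of other cell types ran from -0.22 for red cell and fibroblast markers to 0.10 for adipocyte markers. At an unadjusted p under 0.05, 1 of 12 nerve and Schwann cell markers was lower and no marker of the other cell types was higher or lower. The summed red cell signal was 51054 to 55729 at 1 h and 23186 to 64955 at 6 h, and the fibroblast sum 46255 to 58328 and 32951 to 69083. The fibroblast markers had a control median of 0.81 and a total RNA median of 0.79. The skeletal muscle sum was 183446 to 285377 at 1 h and 109702 to 290983 at 6 h. All 13 tested markers of the labelled tissue were above the floor on some of the 12 arrays.

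The 1 h numbers lay as far from each other as from the 6 h numbers: 521 probe sets were more than 1 log2 apart between them, 474 to 761 between number 1 and a 6 h number and 394 to 663 between number 2 and a 6 h number. For the early genes below, both arrays of a number lay on the same side. Between them, 46 genes lay 2 log2 or more apart, 21 of them higher in number 1 and 25 in number 2. Number 1 was higher for Fos (37782 and 26481 on its arrays against 3706 and 2507), Egr1 (54152 and 46560 against 7159 and 5797), Nr4a1 (25059 and 22027 against 3458 and 4040), Nr4a3, Atf3, Ddit3 and Dnajb1. Apart from the co-chaperone Dnajb1, these genes encode transcription factors of early and stress responses. Number 2 was higher for Ankrd1, Rrad (644 and 460 against 12814 and 9491), a small GTPase of muscle, Pvr (198 and 180 against 3472 and 3399), an adhesion receptor, Thbs4, Cyba, S100a8 and Csrp3.

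Ddit3, an endoplasmic reticulum stress factor, had 4384 and 696 at 1 h and 1071, 900, 1187 and 1100 at 6 h, and Nr4a1, an orphan nuclear receptor, 23494 and 3738 at 1 h and 2273, 3689, 5432 and 5650 at 6 h. The summed macrophage signal was 10122 in number 1 and 18798 in number 2, and the neutrophil sum, of which S100a8 is a member, 824 and 2180. For Rack1, Ppp1r1a, Atp2a2 and Txnl1 the spread within 1 h rested on array a of the lower number, for example 253 and 6619 for Rack1.

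**Figure D4:**
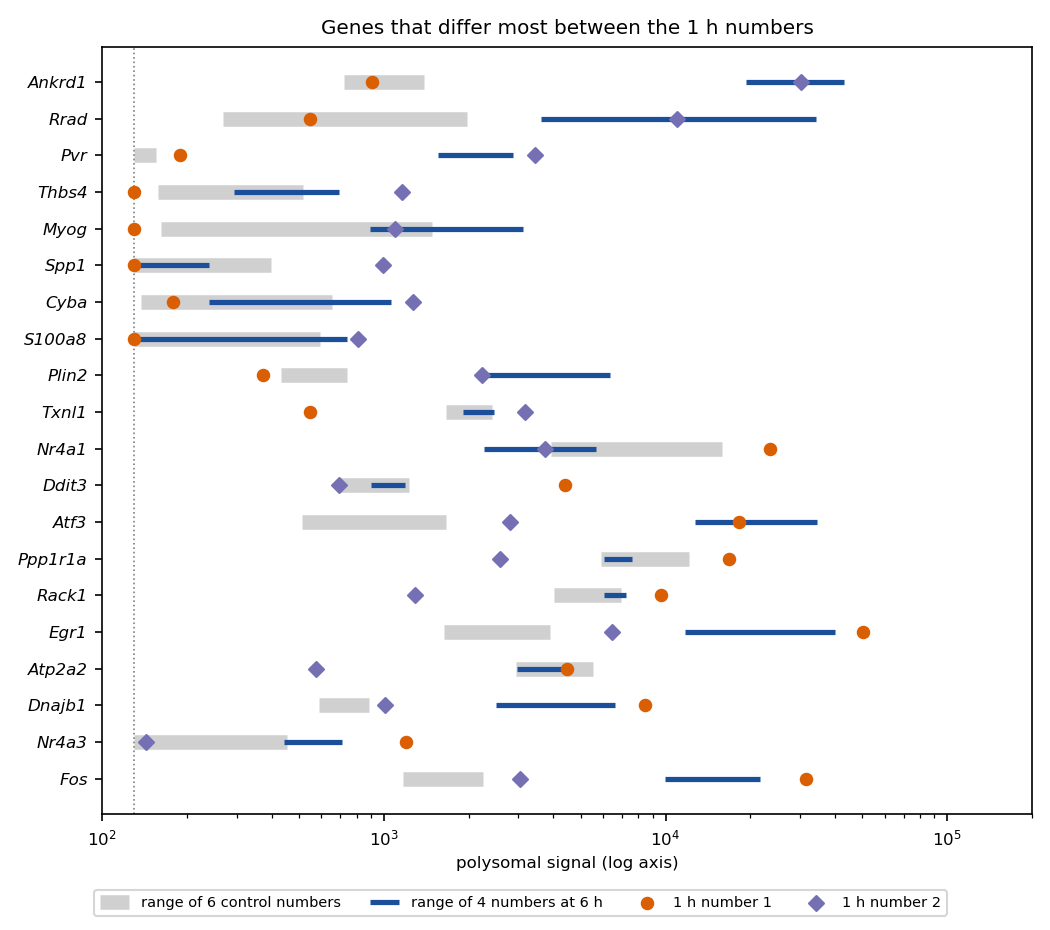
Polysomal signal (log axis) of 20 genes that differ most between the 1 h numbers, with the range of the 6 h numbers and of the 6 control numbers. Number 1 is high for Fos, Egr1 and Nr4a1 and number 2 for Ankrd1, Rrad and Pvr, and for Ankrd1 number 1 at 907 lies in the control range of 720 to 1389.

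Of 3903 genes 2320 (59.4%) had the same sign against both 1 h numbers. More than 1 log2 against both there were 16 genes higher and 16 lower, whereas 129 were that far higher and 74 lower against number 1 alone, and 74 and 74 against number 2 alone. The genes higher against both were Actc1, Fst, Pdk4, Hbegf, Runx1, Pelo, Hspa1a, Smad1, Pdpn, Casz1, Dnaja1, Pdhx, Cds1, Cpt2, Crem and Maz. Those lower against both included Klf4, Phactr4, Ybx3, Selenow, Ctdsp1, Spop and Anp32a, and also Acta1, Pvalb, Tnnc2, Myl11 and Cox6a2, which rest in part on the arrays named without a letter. Without those arrays Acta1 went from -1.77 to -0.19, Cox6a2 from -1.58 to -0.54, Myl11 from -3.09 to -1.79, Pvalb from -2.01 to -1.33 and Tnnc2 from -2.19 to -1.46.

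Selenow, a small selenoprotein abundant in muscle, had 14294 and 13807 at 1 h and 4735, 4399, 9320 and 5082 at 6 h, a difference of -1.33 (SE 0.55). Ctdsp1, a phosphatase of RNA polymerase II, had 4735 and 3536 at 1 h and 1199, 1113, 2488 and 2021 at 6 h, a difference of -1.35 (SE 0.48). The control polysome was the lower control for both, by 0.48 and 0.50.

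**Figure D5:**
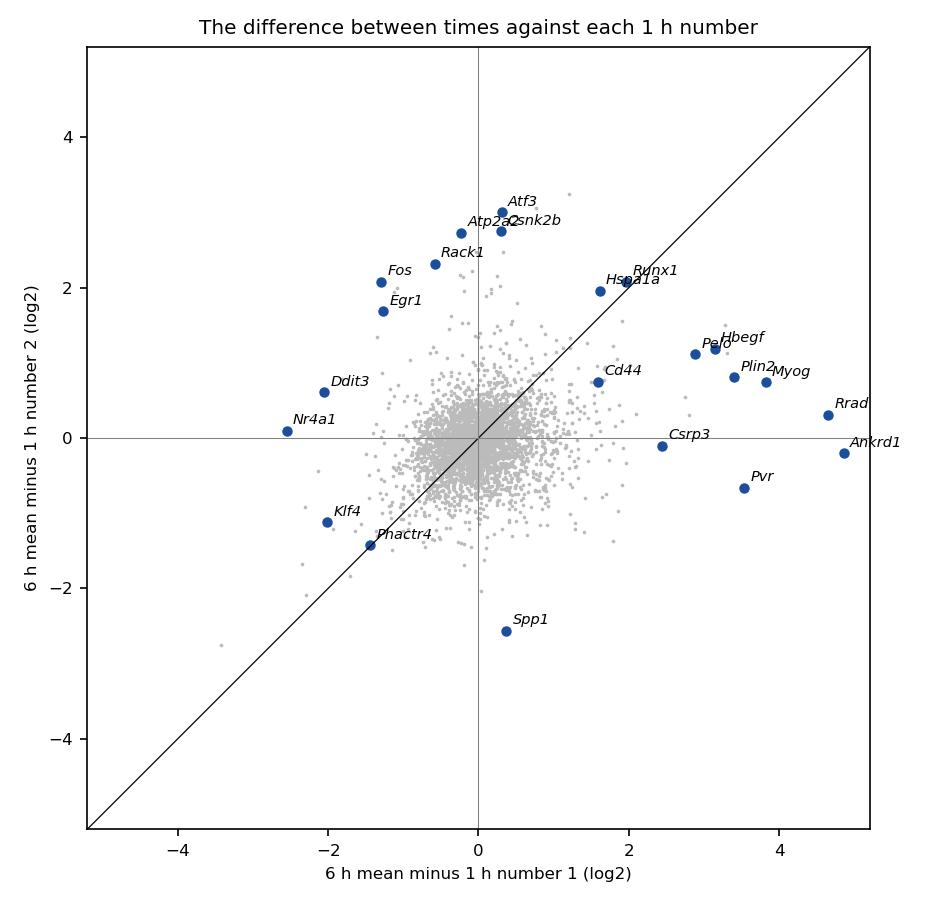
Difference of the 6 h mean from 1 h number 1 against that from 1 h number 2 (both log2), 1 point for each of 3903 genes. Runx1 (1.96 and 2.08) and Hspa1a (1.61 and 1.96) lie near the diagonal, while Ankrd1 (4.86 and -0.20) and Fos (-1.29 and 2.08) lie far from it.

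The difference between the times was then set against that in total RNA. No probe set passed in limma (0 of 6707, 0.0%), and 372 (5.55%) had an unadjusted p under 0.05. The smallest p belonged to Chrna1, the acetylcholine receptor alpha subunit, with 467 and 398 at 1 h and 790, 744, 444 and 401 at 6 h on polysomes and 2786 and 17114 at 1 h and 690, 771, 552 and 401 at 6 h in total RNA. The times differed by 0.40 on polysomes and by -3.56 in total RNA, a contrast of 3.96 (SE 0.77, adjusted p = 0.417), and the high 1 h values were those of total RNA. Tuba4a differed by -0.84 on polysomes and 0.33 in total RNA (contrast -1.17, SE 0.26, adjusted p = 0.699).

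Ruvbl1, an ATPase of chromatin remodelling complexes, had 226 and 308 at 1 h and 496, 545, 371 and 426 at 6 h on polysomes, and differed by 0.78 there and by -0.63 in total RNA. Pcsk2, a prohormone convertase, was at the floor in all 4 numbers at 6 h on polysomes and at 185 and 221 at 1 h. The contrast of Runx1 was 1.61 and that of Hspa1a also 1.61, neither of them past the threshold.

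The controls were compared with each other in the same way, as a background. No probe set passed in limma (0 of 6707, 0.0%), 367 (5.47%) had an unadjusted p under 0.05, and for 1200 (17.9%) the numbers did not overlap. The smallest p values were those of C1r, a complement protease (1498 and 1171 in the control titled 1hr polysome, 2887, 4343, 3586 and 2950 in the control polysome), P3h4, Cd74 and Acp5. C1r differed by 1.36 (SE 0.28, adjusted p = 0.316) between the controls and by 0.80 between the exercised times. Over probe sets the difference between the exercised times correlated with that between the controls at 0.37, although no sample is shared; probe sets are not independent replicates. Of the 366 probe sets with an unadjusted p under 0.05, 278 (76.0%) had the same sign between the controls, beside 4053 (60.4%) of all, and 52 had an unadjusted p under 0.05 there too. What separates the controls is not stated in the labels, and its part in the difference between the times was not tested.

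Tested directly, the difference between the times beyond that of the controls gave 0 of 6707 calls (0.0%) in limma and 173 (2.58%) at an unadjusted p under 0.05. The smallest p belonged to Kif13a, a kinesin motor, with 243 and 502 at 1 h and 451, 408, 453 and 502 at 6 h beside 989 and 827 and 600, 371, 487 and 332 in the controls (1.43, SE 0.40, adjusted p = 1.0). Ncr3, Asb1 and Arl10 followed at 1.06, 1.12 and -0.99. In all 4 of these the difference between the controls was larger than that between the times. Of the genes led above, Runx1 came to 2.01, Plin2 to 1.81, Hspa1a to 1.73, Azin1 to 1.72, Hbegf to 1.5 and Klf4 to -1.71 beyond the controls, whereas Tuba4a came to -0.06 and Foxs1 to -0.05.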

How the data were processed

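The authors deposited 1 table of intensity signals for 36 one-colour arrays, linear in scale and without a stated software or summary method. Its arrays share a 2% trimmed mean of 801 to 801.9, which was kept. Without the 59 control probe sets, signals under a floor of 129.5 (the 40th percentile) were raised to it, log2 was taken, and arrays of a number were averaged. Probe sets that exceeded the floor on 4 or more arrays (6707) entered 1 limma fit (3.58.1, R 4.3.3) over 18 replicates of 6 groups with 12 residual degrees of freedom, two-sided, Benjamini-Hochberg threshold 0.05. The number of arrays limits the precision, and 24.0% of values on the 12 arrays lay at the floor. The fit was checked on simulated data.

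Platform annotation, updated through Entrez identifiers, gave 7006 of 8740 probe sets 1 symbol, 308 several and 1426 none. The brightest tested probe set stood for each of 3903 genes, 1152 of which had more than 1. Arrays of a number correlated at 0.937 to 0.976 and the 60 other pairs at 0.892 to 0.963, so none was a copy.

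Named genes were the 12 smallest p in each direction, 3 members per list, 4 per further comparison and the 10 most apart in each direction between the 1 h numbers; list members were named only where a list other than markers had one at an unadjusted p under 0.05, a limit set after values were seen. The members and lists were chosen with earlier results of these data known. The deviations of same-numbered samples of 1 h and 6 h correlated at 0.025 and -0.003. With only 2 numbers at 1 h, their deviations are equal and opposite. These values therefore rest on 1 contrast and cannot exclude a pairing. Same-numbered samples of 6 h and the control polysome did deviate together (0.46, 0.54, 0.44 and 0.43), a pairing read from the data. Differently numbered samples within numbers 1 and 2 or within 3 and 4 gave 0.2, 0.29, 0.37 and 0.05. Those across gave -0.51 to -0.18, so the deviations also follow numbers 1 and 2 against 3 and 4. With same-numbered exercised and control samples as a block, the difference beyond the controls had 0 calls and 574 probe sets at an unadjusted p under 0.05. Alternatives covered scaling, floor, filter, samples, weights, block, spread prior, each replicate left out and, added after seeing the data, single arrays left out.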

Additional observations from a re-analysis of the deposited data

Results flagged for a closer look

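In 196 groups of 4 numbers, 17 had 1 number far from the other 3, 10 of them at 6 h and 7 in the control polysome; chance gives about 1 in 20 groups. At 6 h, number 4 stood apart for Klf6 (7271 beside 3157 to 3529), the glycolytic enzyme Pgk1 (24312 beside 19746 to 20209), Eif3b (4925 beside 3449 to 3583) and Slc41a2 (132 beside the floor). Number 2 stood apart for Csnk2b (6458 beside 4388 to 4635), Pias2 (333 beside 449 to 456) and Txnl1, a thioredoxin-like protein (2454 beside 1914 to 1985). Number 1 stood apart for Crem (660 beside 826 to 862) and Ptprc, the leukocyte phosphatase CD45 (295 beside 163 to 172), and number 3 for Prkar1a, a regulatory subunit of protein kinase A (989 beside 1277 to 1343).

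In the control polysome, number 4 stood apart for Hbegf (332 beside 206 to 208), Actc1 (3364 beside 16813 to 18297), Got1 (4590 beside 7352 to 7945) and Tnni2 (34711 beside 25897 to 26155). Number 3 stood apart for Mxi1 (1694 beside 812 to 909), number 2 for Btg1 (987 beside 1854 to 1931) and number 1 for Spp1, osteopontin (398 beside the floor).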

How the results depend on the processing

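For the 6 h against 1 h comparison 22 of 27 alternatives made no call, and the count at an unadjusted p under 0.05 ran from 266 to 856. A floor at the 60th percentile gave 1 call and all 36 arrays with the number as a random block gave 6. The replicate block, the number as a fixed term across all 6 groups, gave 19 calls. The labels state no such pairing, and the 2 numbers at 1 h cannot show or exclude it between the times. Leaving out 1 replicate gave 0 to 27 calls, 27 without 1 h number 1 and 12 without number 2, with the spread of the lone sample taken from the other groups. Against total RNA, no filter gave 3 calls, the random block 2 and leaving out a replicate 0 to 14: 14 without polysomal 1 h number 1, 8 and 1 without total RNA 1 h numbers 1 and 2. For the controls the random block gave 15, array weights 1 and the replicate block 4. Beyond the controls, leaving out a replicate gave 0 to 17 calls, 17 without 1 h number 1, and numbers 3 and 4 alone at 6 h gave 1. At an unadjusted p under 0.05 these 3 comparisons had 264 to 571, 211 to 875 and 116 to 574 probe sets. The cause was not tested.

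Of 98 named genes 76 kept the sign of their difference between the times in every alternative and 22 turned in at least 1, among them Fos, Egr1, Nr4a1 and other genes named for the spread within 1 h. Without 1 h number 1, Ankrd1 came to -0.20 and Csrp3 to -0.10, and without number 2 to 4.86 and 2.44. Without 1 h number 2, Acsl1 came to -0.03, Atp5pf to -0.21, Tnni2 to -0.19 and Atp2a2 to -0.23. Without number 1 these 4 came to 2.47, 2.14, 1.96 and 2.73. By array b of the 1 h number whose array a lay low, Tnni2 came to -0.05 and Eif3b to -0.03. With only numbers 3 and 4 at 6 h Acta1 came to 0.21. Without the arrays named without a letter there were 0 calls in limma, 419 probe sets at an unadjusted p under 0.05, and the median over all genes went from -0.02 to -0.09. Values at the floor have no order, which limits Fosl1, Stard8, Pdpn, Myog, Lif, Mapk9, Slc41a2, Zfp386, Gtf2ird1, Ptpn6, Thbs4, S100a8, Spp1 and Pcsk2.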

Other observations

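Myog and Pdk4 were higher in numbers 1 and 2 than in numbers 3 and 4, at 6 h and in the control polysome. Over probe sets the contrast of numbers 3 and 4 minus 1 and 2 correlated at 0.68 between these groups, which share no sample. Casz1, a zinc finger transcription factor, had 671, 1238, 146 and 749 at 6 h and 669, 1004, 193 and 146 in the control polysome. Cds1, which makes CDP-diacylglycerol for phospholipids, had 643, 544, 581 and 311 at 6 h and 932, 958, 307 and 335 in the control polysome. The numbers of Casz1 and Cds1 separated in this way only in the control polysome, and overlapped at 6 h. Casz1 and Cds1 were chosen after their values were seen.

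Mif, macrophage migration inhibitory factor, and Higd1a, a hypoxia-induced mitochondrial protein, were apart on all 12 arrays. Mif had 4952 to 5676 at 1 h and 6284 to 8900 at 6 h (0.51, SE 0.19), and Higd1a 2875 to 5833 and 5972 to 17391 (0.97, SE 0.30). The control polysome was also the higher control for both, by 0.39 and 0.45. Idi1, an enzyme of isoprenoid synthesis, had 86 to 160 at 1 h and 173 to 339 at 6 h (0.73, SE 0.28), part of it below the floor. Among the genes lower on all arrays, Nr1d2, a clock repressor, had 283 to 360 at 1 h and 134 to 201 at 6 h (-1.02, SE 0.54), with -0.29 between the controls. Atg13, of the autophagy initiation complex, had 312 to 361 and 81 to 306 (-1.04, SE 0.46), with 0.61 between the controls, the opposite sign.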
